A study of Homo sapiens with 3 samples.

Results

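Complex I of the mitochondrial respiratory chain is built from proteins encoded in both genomes of the cell, and the genes described here are its nuclear part: every gene whose symbol in the deposited comparison table begins with NDUF. Of 51 such symbols, 4 were left out as pseudogenes, antisense or divergent transcripts (NDUFA6-DT, NDUFAF4P1, NDUFB2-AS1 and NDUFB9P2). The remaining 47 genes, of 25702 in the deposited read counts, comprised 37 subunits, 8 assembly factors named NDUFAF, and NDUFA4 with its paralog NDUFA4L2. NDUFA4 is today counted with complex IV (cytochrome c oxidase), so this pair was kept apart from the subunits. All 47 genes had at least 10 reads in at least 1 library, which is the filter that left 12879 genes for testing.

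To evaluate the early transcriptional response to pyrvinium, an anthelmintic dye, the study sequenced RNA from Molm13, an established acute myeloid leukemia line that carries a FLT3 internal tandem duplication and a KMT2A rearrangement. Cultures in RPMI medium with serum were exposed for 6 h to the vehicle DMSO or to pyrvinium at 50 nM or 100 nM. Each condition was 1 library, and the same DMSO library served both doses. No value below therefore has a replicate, and each test compares libraries rather than conditions.

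Complex I, the NADH:ubiquinone oxidoreductase, takes electrons from NADH, passes them through a flavin and a chain of iron-sulfur clusters to ubiquinone, and pumps protons across the inner mitochondrial membrane. Its matrix arm holds the N module, where NADH is oxidised, and the Q module, where ubiquinone is reduced. Its membrane arm holds a proximal and a distal proton-pumping part. A small core of subunits does the catalysis and has bacterial counterparts. The accessory subunits surround and stabilise that core, and assembly factors help to build the enzyme but are absent from the finished complex.

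The libraries held between 22677038 and 24075123 counted reads, and the TMM-scaled sizes used below differed from these totals by little (22625323 to 24103392). Myeloid marker genes were present in every library, among them CD33 with 1910 to 2015 reads and SPI1 with 2491 to 2981. Markers of T cells, B cells, red cells, epithelium and fibroblasts had 0 to 26 reads, and CD3E and EPCAM were at 0 in all 3 libraries.

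Subunit transcripts were abundant, and assembly factor transcripts less so. Levels are given as RPKM, reads scaled to exon length and to library size, so that genes of different length can be compared. In the DMSO library the 37 subunits had a median level of 86.8 RPKM and the 8 assembly factors one of 24.7 RPKM. The medians were 91.6 and 24.8 RPKM at 50 nM, and 87.1 and 24.6 RPKM at 100 nM. The most abundant member was NDUFS5, an accessory subunit at the intermembrane side of the proximal arm, with 305 RPKM in DMSO, 280 at 50 nM and 263 at 100 nM. NDUFB9 of the distal arm followed with 265, 300 and 272 RPKM. NDUFAB1, the mitochondrial acyl carrier protein, had 203, 203 and 193 RPKM. NDUFS5 was above NDUFB9 in DMSO and below it in both treated libraries.

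The lowest levels were those of NDUFA4L2, at 2.94, 4.13 and 4.71 RPKM in DMSO, 50 nM and 100 nM, of NDUFA3, a proximal arm subunit, at 7.07, 6.99 and 5.51 RPKM, and of the assembly factor NDUFAF5, at 7.52, 6.84 and 5.97 RPKM. Subunit transcript levels in DMSO thus spanned 43.2-fold, although the assembled enzyme holds most of these proteins as single copies. The lower end of this span was NDUFA3 alone, with 58 reads in DMSO. The next lowest subunit, NDUFV3, had 14.6 RPKM. The 7 conserved catalytic subunits spanned 2.69-fold, from 54.2 RPKM for NDUFS8 to 146 RPKM for NDUFS3. The reason for the low count of NDUFA3 was not tested.

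**Figure D1:**
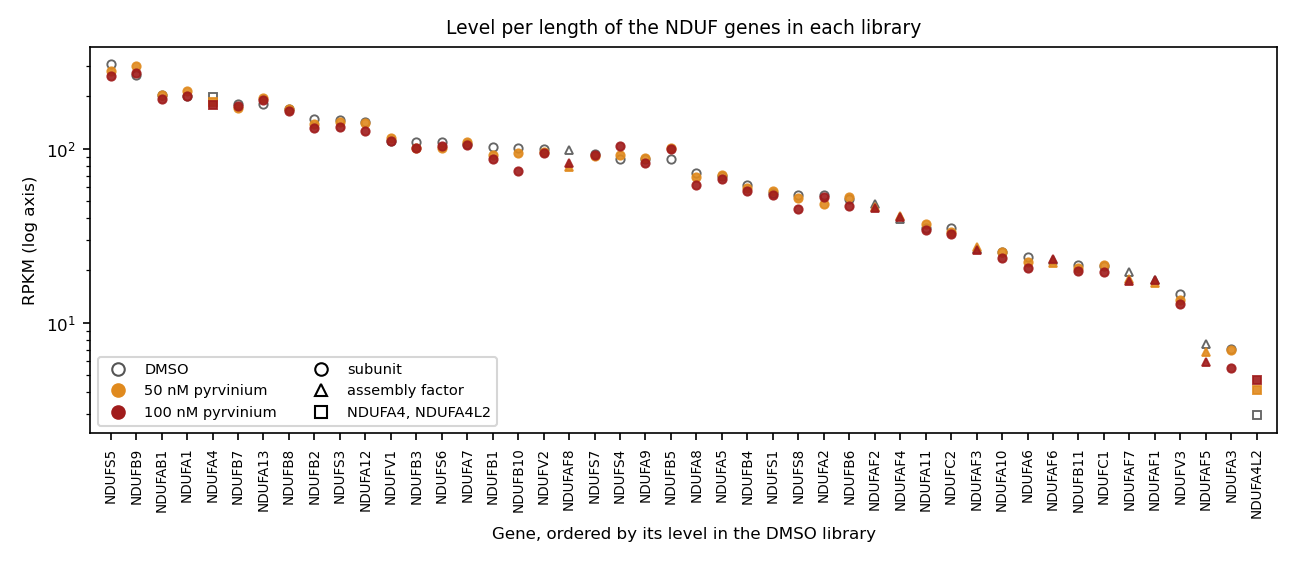
Levels of the nuclear complex I genes per exon length, in RPKM on a log axis, in the DMSO (open), 50 nM (orange) and 100 nM (red) libraries; circles are subunits, triangles assembly factors and squares NDUFA4 and NDUFA4L2, with genes ordered by their DMSO level, no error bars and 1 subunit not shown. The subunits sit mostly above the assembly factors, whose DMSO median is 24.7 RPKM against 86.8 RPKM.

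As a share of all counted reads, the subunits took 0.337% in the DMSO library, with a 95% Wilson interval from 0.335% to 0.340%. Their share was 0.338% (0.335 to 0.340) in the 50 nM library and 0.322% (0.320 to 0.324) in the 100 nM library. The share was alike in the first 2 libraries and lower at 100 nM. The assembly factors took 0.0359%, 0.0342% and 0.0341%. These intervals, and those of all fold changes below, cover counting error only. A share is relative to the other reads of its library and gives no amount per cell. Whether fewer cells held these transcripts or each cell held less of them cannot be told apart in such bulk libraries.

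At 100 nM the nuclear complex I genes moved little, and none reached the 2-fold change that the study took as its threshold (3.84% of all genes tested did so in either direction, and 2.2% did so with an adjusted p of at most 0.05). A gene was called at an adjusted p of at most 0.05 in a two-sided exact binomial test and a log2 fold change of at least 0.32 up or down. Of the 47 genes, NDUFB10 and NDUFAF5 fell and NDUFA4L2 rose, and 44 were not called. In the same comparison 8.2% of all genes tested were called lower and 10.3% higher.

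Below these thresholds the subunits lay to the low side of DMSO. Of 37 subunits, 31 had a log2 fold change below 0, against 50.4% of all genes tested. Their median log2 fold change was -0.08, a decrease of about 5%, and that of all genes was 0.00. With the adjusted p alone and no minimum size, 14 subunits were lower and 2 higher, where 22% and 21.1% of all genes were. The median half-width of the intervals was 0.09 for subunits and 0.16 for all genes, so subunits could pass at smaller changes. For 35 of the 37 subunits the change stayed within the minimum size for a call, as it did for 70.1% of all genes tested. Among the 3 libraries, 27 of 37 subunits had their lowest value at 100 nM, as did 37.8% of all genes tested.

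**Figure D2:**
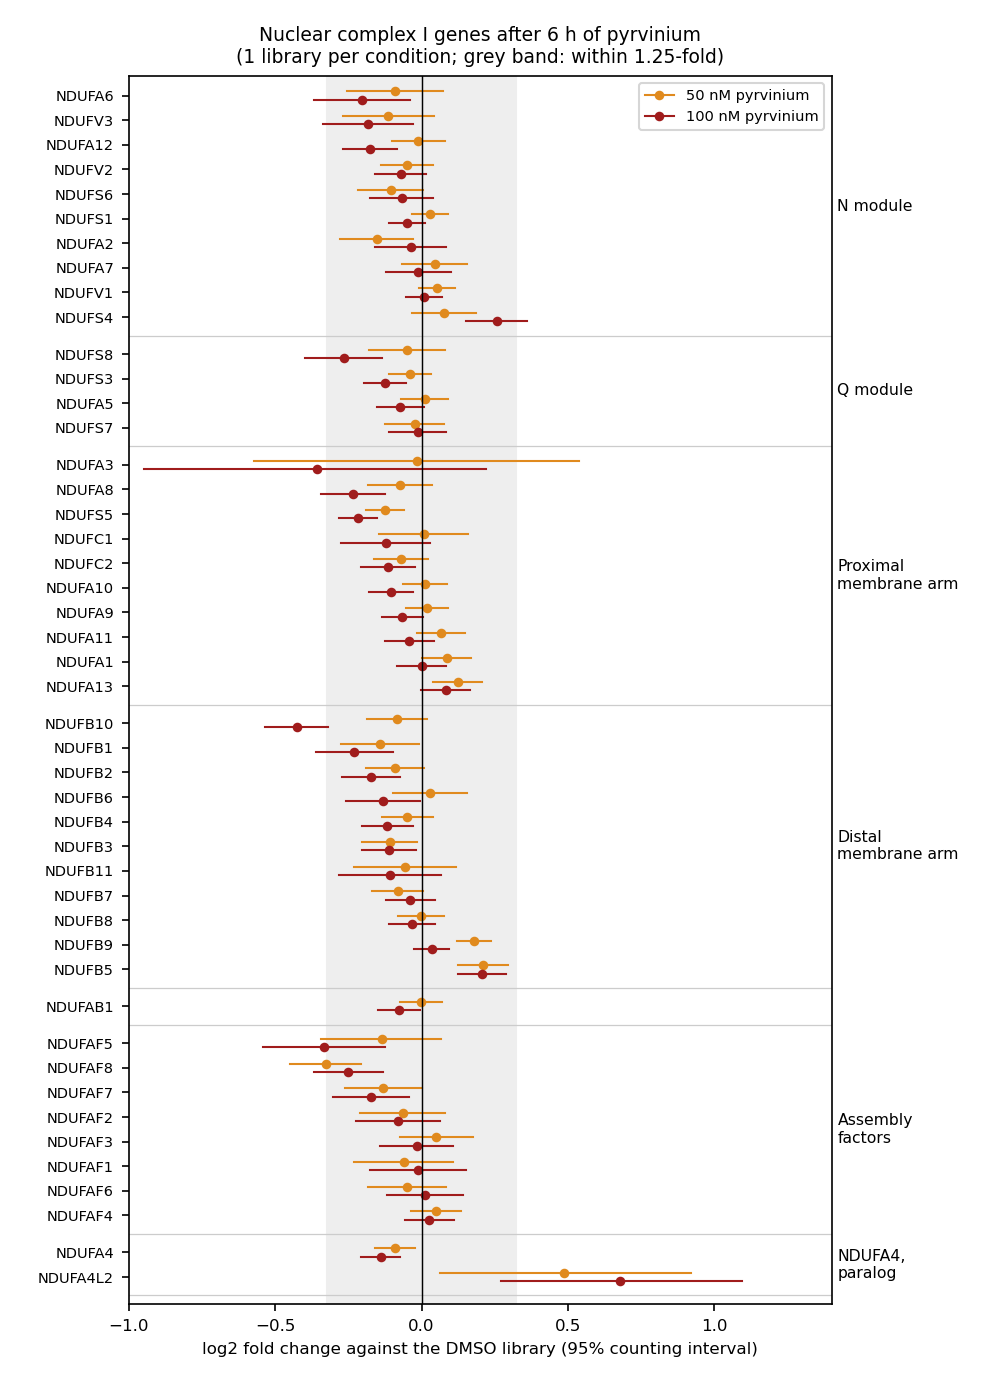
Log2 fold change (horizontal axis) of each NDUF gene, by module, for the 50 nM (orange) and 100 nM (red) libraries against DMSO, with 95% intervals for counting error as bars and a grey band up to 0.32, the minimum size for a call; 1 subunit is not shown. Most subunits lie slightly below 0 at 100 nM, NDUFB10 is lowest at -0.43 and NDUFA4L2 is highest at 0.68.

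The subunit with the lowest fold change was NDUFB10, an accessory subunit of the distal membrane arm with disulfide bonds in the intermembrane space (Entrez 4716, hg19 chr16:2009517-2011976, plus strand). It had 1622 reads in DMSO, 1494 at 50 nM and 1256 at 100 nM. The DMSO and 50 nM libraries were close, and the 100 nM library was the low one. Against DMSO, the 100 nM library gave a log2 fold change of -0.43 with a 95% interval from -0.53 to -0.32 (exact binomial test, adjusted p = 5.39e-14). Against 50 nM it was -0.34 (-0.45 to -0.23), and 50 nM against DMSO gave -0.08 (-0.19 to 0.02).

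Among members with at least 50 reads, the other large decreases belonged to NDUFA3, NDUFS8, NDUFAF5 and NDUFAF8. NDUFA3 had 58, 56 and 47 reads in DMSO, 50 nM and 100 nM, and its log2 fold change at 100 nM of -0.36 had an interval from -0.95 to 0.22, so no difference was detectable at this depth. NDUFS8, a catalytic subunit of the Q module that binds iron-sulfur clusters, had 1010, 953 and 874 reads. Its log2 fold change at 100 nM was -0.27 (-0.40 to -0.13), which passed the exact binomial test (adjusted p = 3.07e-04) but not the minimum size.

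NDUFS4, an accessory subunit that joins the N module late and is known from inherited complex I deficiency, went the other way. It had 1360 reads in DMSO, 1401 at 50 nM and 1690 at 100 nM, so that the 100 nM library stood above the other pair. The log2 fold change at 100 nM was 0.26 (0.15 to 0.36; exact binomial test, adjusted p = 6.37e-06). NDUFB5 of the distal arm had 2128, 2404 and 2554 reads, and was 0.21 higher on the log2 scale at 100 nM (0.12 to 0.29) and 0.21 higher at 50 nM (0.13 to 0.30). Neither gene reached the minimum size for a call.

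The remaining members among the 5 largest positive fold changes were NDUFA13 and NDUFB9. NDUFA13, also known as GRIM-19, had 2256, 2400 and 2484 reads in DMSO, 50 nM and 100 nM. NDUFB9 had 4421, 4886 and 4710 reads, and its highest library was 50 nM, where the log2 fold change was 0.18 (0.12 to 0.24) against 0.03 at 100 nM.

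By position in the enzyme, the medians at 100 nM were close to each other. The 10 N module subunits had a median log2 fold change of -0.06, the 5 Q module subunits -0.07, the 10 proximal arm subunits -0.11 and the 11 distal arm subunits -0.11. All 5 Q module subunits were below 0, but only NDUFS8 and NDUFS3 passed the adjusted p there. No subunit of the N module, the Q module or the proximal arm was called. The 30 accessory subunits had a median of -0.11 and the 7 catalytic ones -0.07.

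**Figure D3:**
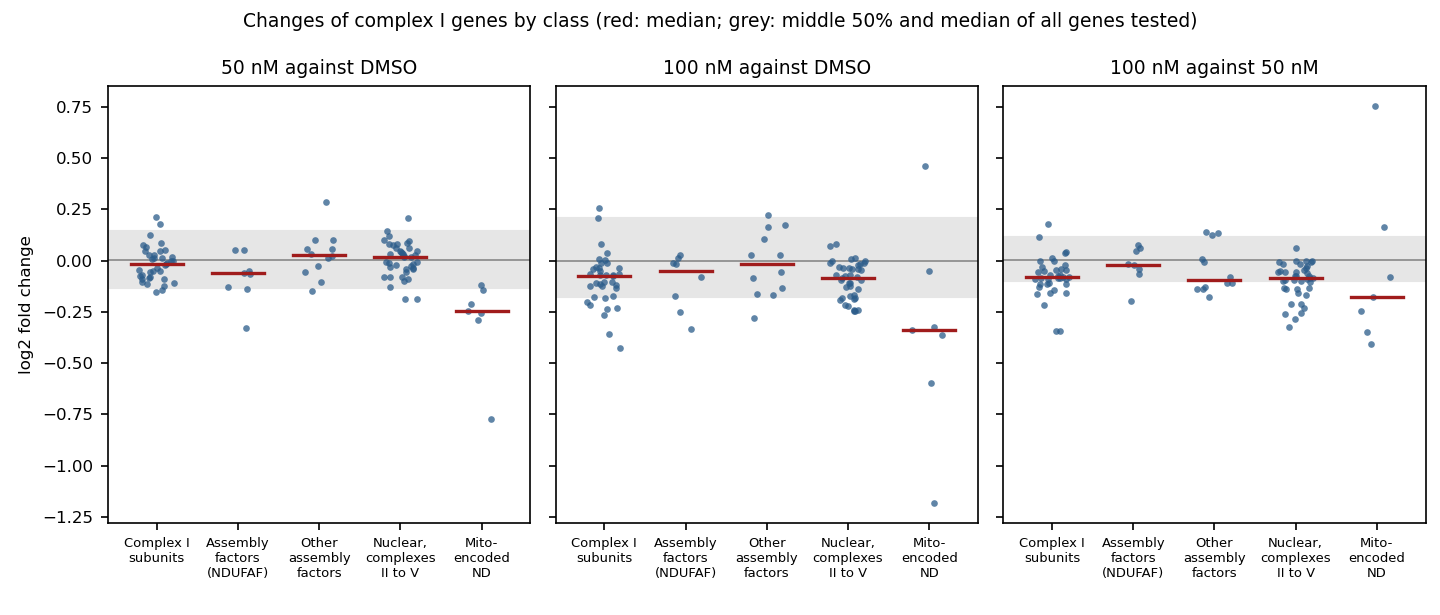
Log2 fold changes (vertical axis) for each pair of libraries of the subunits, both kinds of assembly factors, nuclear subunits of complexes II to V and mitochondrially encoded subunits; each point is 1 gene, the red line is the class median and the grey band holds the middle 50% of all genes tested. The subunit median is -0.08 at 100 nM against DMSO and -0.02 at 50 nM against DMSO.

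The catalytic subunits ranged from NDUFS8, described above, to NDUFV1 at 100 nM. NDUFV1, which binds the flavin and NADH, had 4180 reads in DMSO, 4232 at 50 nM and 4370 at 100 nM. Its change at 100 nM was 0.01 (-0.05 to 0.07) on the log2 scale. NDUFS1, which holds several iron-sulfur clusters, had 4426, 4409 and 4448 reads and a log2 fold change of -0.05 (-0.11 to 0.01). The intervals of both genes included 0.

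NDUFV2, an iron-sulfur protein of the N module, had 2133, 2013 and 2111 reads. In the Q module, NDUFS7 had 1689, 1622 and 1741 reads, and NDUFS3 had 3244, 3085 and 3092. Of these 3 genes NDUFS3 passed the adjusted p at 100 nM, with a log2 fold change of -0.13 (-0.20 to -0.05).

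NDUFAF5 and NDUFAF8 act on the same step, the modification of NDUFS7, and were the assembly factors with the lowest fold changes. NDUFAF5, a hydroxylase of NDUFS7 (Entrez 79133, hg19 chr20:13765672-13799067, plus strand), had 420 reads in DMSO, 373 at 50 nM and 347 at 100 nM. At 100 nM its log2 fold change was -0.33 (-0.54 to -0.12; exact binomial test, adjusted p = 0.00517), and it was called.

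NDUFAF8, the partner of NDUFAF5 (Entrez 284184, hg19 chr17:79213111-79215098, plus strand), had 1276, 993 and 1116 reads. Its lowest library was 50 nM, where the log2 fold change was -0.33 (-0.45 to -0.21; exact binomial test, adjusted p = 1.24e-06). It was -0.25 (-0.37 to -0.13) at 100 nM, which passed the adjusted p but was short of the minimum size.

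The other assembly factors differed less. NDUFAF7, a methyltransferase, had 1007, 898 and 930 reads and a log2 fold change of -0.17 at 100 nM. NDUFAF1, which acts on the membrane arm, had 598, 560 and 617 reads, and NDUFAF2, a paralog of NDUFA12, had 806, 753 and 793. NDUFAF3 had 1036, 1048 and 1065 reads, and NDUFAF4, its partner in early assembly, had 2213, 2238 and 2345. NDUFAF6 had 952, 898 and 998 reads. The log2 fold changes of these last 5 lay between -0.08 and 0.03 at 100 nM.

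Subunits and assembly factors could be compared within the same libraries, since library scaling cancels in the difference of their summed counts. At 100 nM the log2 change of the summed counts was -0.07 (-0.08 to -0.05) for subunits and -0.07 (-0.12 to -0.03) for assembly factors, a difference of 0.01 (-0.04 to 0.05). At 50 nM it was 0.01 (-0.01 to 0.02) for subunits and -0.06 (-0.11 to -0.02) for assembly factors, a difference of 0.07 (0.02 to 0.12). Without NDUFAF8 that difference was 0.03 (-0.02 to 0.08), so it rested largely on this gene, an alternative chosen after the data were seen. The same omission at 100 nM gave -0.04 (-0.09 to 0.004) for assembly factors and a difference of -0.02 (-0.07 to 0.03). For 100 nM against 50 nM the difference was -0.06 (-0.11 to -0.02), and -0.05 (-0.10 to 0.0005) without NDUFAF8.

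At 50 nM against DMSO, 22 of 37 subunits and 6 of 8 assembly factors were below 0, where 49.8% of all genes tested were. Only NDUFAF8 was called lower, and no member was called higher, against 3.8% and 4.56% of all genes. With the adjusted p alone, 3 of the 47 members were lower and 3 higher, where 13.9% and 14.3% of all genes were. For the step from 50 nM to 100 nM, 32 of 37 subunits were below 0 (49.8% of all genes), with a median log2 fold change of -0.08. NDUFB10 alone was called lower and no member higher, where 1.16% and 1.82% of all genes were. With the adjusted p alone, 8 members were lower and 1 higher, against 9.25% and 7.69% of all genes. The comparisons share libraries, so they are not independent of each other.

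NDUFA4L2 rose at 100 nM. It encodes a mitochondrial protein known as a target of hypoxia-inducible factor (Entrez 56901, hg19 chr12:57628686-57634545, minus strand). It had 81 reads in DMSO, 111 at 50 nM and 135 at 100 nM. The highest dose differed from DMSO by 0.68 on the log2 scale (0.27 to 1.10; exact binomial test, adjusted p = 0.00287). The counts increased in the order of dose, but 50 nM did not pass the test (adjusted p = 0.0758). Its exons overlap by 33 bases those of SHMT2 on the opposite strand, which had 6602, 8713 and 9597 reads. The strand setting of the counting is not given in the sources used here, and the part of SHMT2 reads in this value was not tested. NDUFA4 had 3761, 3449 and 3551 reads, a log2 fold change of -0.14 at 100 nM.

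Exons of 5 further members overlap a gene on the opposite strand: NDUFS3, NDUFC2, NDUFA2, NDUFB2 and NDUFA1, over 2 to 140 bases. None of these was called in any pair.

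Genes outside the NDUF names give the wider setting at 100 nM. The 40 nuclear subunits of complexes II to V had a median log2 fold change of -0.08, with 36 below 0 and none called. The summed counts of complex I subunits differed from theirs by 0.00 (-0.02 to 0.01) on the log2 scale. The 12 complex I assembly factors with other names had a median of -0.01, with 6 below 0 and none called. The 7 complex I subunits encoded in mitochondrial DNA had a median of -0.34, and 5 of them were called lower and 1 higher. Of all genes tested, 50.4% were below 0, 8.2% were called lower and 10.3% higher. The median half-width of the intervals was 0.02 for the mitochondrially encoded subunits and 0.09 for the nuclear ones. The mitochondrially encoded genes could thus pass the adjusted p at smaller changes.

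In the RefSeq promoter table (GRCh38.p14, whereas the counts are on hg19), 41 of the 47 genes matched, and 250 bases before the start were examined. NDUFB10 and NDUFS4 are shown because they are the subunits with the lowest and the highest fold change at 100 nM. Capitals mark CpG dinucleotides.
NDUFB10, chr16:1959288-1959537, plus strand: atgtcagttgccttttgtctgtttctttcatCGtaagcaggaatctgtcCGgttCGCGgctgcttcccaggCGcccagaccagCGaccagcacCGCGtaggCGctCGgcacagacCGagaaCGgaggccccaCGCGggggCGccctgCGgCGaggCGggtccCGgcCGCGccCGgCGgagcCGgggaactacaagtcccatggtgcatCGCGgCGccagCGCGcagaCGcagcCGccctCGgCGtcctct
NDUFS4, chr5:53560389-53560638, plus strand: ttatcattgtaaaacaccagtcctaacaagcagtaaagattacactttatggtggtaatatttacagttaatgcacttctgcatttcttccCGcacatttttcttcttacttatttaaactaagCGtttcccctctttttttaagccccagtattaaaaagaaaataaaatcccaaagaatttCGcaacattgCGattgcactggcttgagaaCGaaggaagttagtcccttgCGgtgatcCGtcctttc

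The NDUFB10 stretch had 69.6% G and C and 33 CpG dinucleotides, the most of the matched members. The NDUFS4 stretch had 36.8% G and C, the lowest of them, and 7 CpG dinucleotides. The members had a median of 60.8% G and C and 18 CpG dinucleotides, and all genes in the table medians of 58% and 11. NDUFV2, the matched member with the highest G and C share (76.8%), had a log2 fold change of -0.07 at 100 nM. NDUFA5, the matched member with the fewest CpG dinucleotides (3), had -0.07 as well. A relation between base composition and fold change was not tested.

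Motifs were searched on both strands for factors known to act on respiratory genes or in the integrated stress response. NRF1, nuclear respiratory factor 1, was searched as GCGCANGCG followed by a further C, 10 letters in all. It was present in 5 of 41 members (12.2%), all of them subunits, and in 6.2% of the 27305 genes in the table. Their median log2 fold change at 100 nM was -0.12, and that of the members without it was -0.08. Without the last C the motif was present in 9 of 41 members (21.95%) and 7.98% of all genes, and the medians were -0.07 with and -0.11 without it. The order of the medians thus turned with the length of the motif. The shorter form was searched after the result of the longer one had been seen. The matches of the longer form are shown in capitals with 10 bases on each side.
NDUFA11, chr19:5903869-5903898, minus strand: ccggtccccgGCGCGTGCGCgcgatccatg
NDUFA12, chr12:95003794-95003823, minus strand: acctagctctGCGCACGCGCagagccacca
NDUFA3, chr19:54102675-54102704, plus strand: ctgcgcgagtGCGCACGCGCaggctccgaa
NDUFA3, chr19:54102772-54102801, plus strand: gtgctccaggGCGCACGCGCagccctggga
NDUFA9, chr12:4649024-4649053, plus strand: ttcttggttaGCGCTTGCGCagacaggcga
NDUFB4, chr3:120596167-120596196, plus strand: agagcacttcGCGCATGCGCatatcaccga
NDUFB4, chr3:120596263-120596292, plus strand: ctctgctaacGCGCAGGCGCacttcctgaa

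The ETS motif CCGGAAG was present in 7 of 41 members (17.1%), among them NDUFS1, NDUFS3 and NDUFAF8, and in 10.2% of all genes. Members with it had a median log2 fold change of -0.04 and those without it -0.11. The 5 subunits with it had -0.04 and the other matched subunits -0.11. Among the 7 matched assembly factors the order was the reverse, -0.11 for the 2 with it and -0.08 for those without. The ATF4 element TGATGNAA was present in 1 member, NDUFS6 (2.44%), and in 3.89% of all genes. A match describes the letters of this window and not a bound site. The shares over all genes are those of the whole promoter table, which holds more genes than the 12879 tested. Its genes had a median of 11 CpG dinucleotides against 18 for the members, and the NRF1 and ETS motifs contain CpG. The shares of members and of all genes are therefore those of unlike sets.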

How the data were processed

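RNA from 3 Molm13 cultures (DMSO, 50 nM and 100 nM pyrvinium, 6 h) was sequenced by the authors from stranded TruSeq libraries, aligned with Rsubread to hg19, and deposited as raw read counts per Entrez gene. The higher dose follows the sample titles, since the treatment label writes its unit once as M. The deposited comparison table was used only for gene symbols. Its fold changes, means and posterior probabilities (EBSeq) were not used.

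The members and gene lists were chosen with earlier results of these data known, and motifs were chosen after the files were examined. Named were the 7 catalytic subunits, all assembly factors, the 5 largest rises and falls at 100 nM (at least 50 reads), every called member, the 3 highest and 3 lowest levels, and members of uncertain counting. The values of 1 catalytic subunit are counted in the groups but not reported here by name.

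Genes with at least 10 reads in at least 1 library were scaled by TMM (edgeR 4.0.16, R 4.3.3). Each pair of libraries was compared by a two-sided exact binomial test (scipy 1.17.1) with Benjamini-Hochberg adjustment over all 12879 genes. A call required 0.05 or less for the adjusted p together with a log2 fold change of 0.32 or more in size. This minimum size was below the threshold of the study and was chosen with earlier results of these data known. The calls therefore describe changes at a size that was not set independently of the data. Log2 fold changes had 0.5 counts added, and intervals are 95% Clopper-Pearson. With 1 library per condition, p-values cover counting error only. Half-widths of the members' intervals ran from 0.06 to 0.58 on the log2 scale. The test was checked on data simulated with counting error alone, which is the error it assumes. That check therefore cannot cover variation between cultures. Scaling was repeated with total counts, with size factors from DESeq2 1.42.0, and with TMM after the mitochondrially encoded genes had been removed. Further alternatives were other filters, added counts and fold thresholds, an assumed biological variation, and an edgeR quasi-likelihood dose trend.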

Additional observations from a re-analysis of the deposited data

How the results depend on the processing

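No paired analysis was possible because each condition is 1 library and the labels give no replicate numbers. DESeq2 size factors, total counts and TMM without mitochondrially encoded genes left the direction of all 47 genes at 100 nM against DMSO, and the number of calls in each pair, as they were. The other count filters left the number of calls as it was. With 5 added counts, without the members whose exons overlap another gene, or with NDUFA4 and NDUFA4L2 counted as subunits, the class medians kept their sign. Leaving out the overlapping members also removes NDUFA4L2, the member called higher at 100 nM.

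The number of calls depended on the fold threshold. At 100 nM against DMSO (2 lower, 1 higher), no threshold gave 18 lower and 3 higher, 1.5-fold gave 0 lower, and 2-fold gave 0 lower and 0 higher. At 50 nM against DMSO (1 lower, 0 higher), no threshold gave 3 lower and 3 higher, and 1.5-fold and 2-fold gave 0 lower. At 100 nM against 50 nM (1 lower, 0 higher), no threshold gave 8 lower and 1 higher, and 1.5-fold and 2-fold gave 0 lower.

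With a biological coefficient of variation set to 0.1 or to 0.2, the edgeR exact test left 0 members called in each pair and direction. Calls therefore rest on treating counting error as the only error. At 0.1, the smallest adjusted p at 100 nM was 0.311, and NDUFB10 and NDUFA4L2 had an unadjusted p under 0.05 at the minimum size. At 0.2 none had. The edgeR quasi-likelihood dose trend, with 1 residual degree of freedom, gave an adjusted p of at most 0.05 for 4 members (NDUFB10, NDUFS4, NDUFS5 and NDUFA8) and for 2633 of 12879 genes.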

Other observations

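Disulfide-bonded proteins of the intermembrane space form a small group among the nuclear complex I genes. The subunits NDUFS5, NDUFA8, NDUFB7 and NDUFB10 carry paired cysteine motifs and are imported by the MIA40 pathway. The assembly factor NDUFAF8 carries such a motif too and was added to the group for that alone. Its location and import were not tested. This group was put together after the values were seen, so its values are a description without a test. At 100 nM against DMSO the log2 fold change was -0.22 for NDUFS5, -0.23 for NDUFA8, -0.43 for NDUFB10, -0.25 for NDUFAF8 and -0.04 for NDUFB7. The median of all 47 members was -0.08. Decreases of this size were not particular to the group: NDUFAF5 had -0.33, NDUFS8 -0.27 and NDUFB1 -0.23. NDUFA8 had 1426, 1322 and 1261 reads in DMSO, 50 nM and 100 nM, and NDUFS5 had 4037, 3615 and 3613.

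Of the 12 complex I assembly factors with other names, 6 passed the adjusted p of the exact binomial test at 100 nM against DMSO. Of these, 4 were lower and 2 higher, where 22% and 21.1% of all genes tested were, and none was called. TMEM70, which also serves complex V, had -0.28 at 100 nM on the log2 scale, and ECSIT, which works with NDUFAF1, had 0.22. TIMMDC1 and ACAD9 each had -0.17, TMEM126B had -0.13 and DMAC1 had 0.16. Of the 6 that did not pass, NUBPL had the largest difference, 0.17.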
